A study of Mus musculus with 12 samples.

Results

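Cohesin is the ring-shaped complex that holds sister chromatids together, and this account follows the genes of its subunits in testes that lack the piRNA factor Maelstrom. The 9 genes were chosen by name among 20620 gene rows: the meiotic subunits *Rec8*, *Rad21l*, *Stag3* and *Smc1b*, and *Rad21*, *Stag1*, *Stag2*, *Smc1a* and *Smc3*, which most cells use. RNA and ribosome footprints (the mRNA fragments that ribosomes shield from nuclease) were sequenced from the testes, taken whole, of C57BL/6 mice at postnatal day 16. The libraries came from 3 *Mael*-/- extracts, in which *Mael* is disrupted on both chromosomes, and 3 *Mael*+/- extracts as controls, which still carry a mutant allele and are not wild type. Each extract gave an RNA and a footprint library, which makes 12 libraries in 4 groups of 3.

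In each ring, SMC1 and SMC3 subunits are joined by a kleisin, to which a STAG protein binds. Dividing somatic cells use SMC1A, RAD21 and STAG1 or STAG2. Germ cells in meiotic prophase add SMC1B, the kleisins REC8 and RAD21L and the STAG protein STAG3, build the chromosome axes on these rings, and use SMC3 in all of them. Mice that lack the meiotic forms are known for failed synapsis and sterility. Testes of this age are known to hold spermatogonia, Sertoli and other somatic cells, and spermatocytes that have come as far as pachytene.

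RNA libraries held 13697267 to 27462358 counts over all genes, and footprint libraries 7609932 to 13233565. *Mael* itself had 5045, 4314 and 3800 RNA counts in the *Mael*+/- libraries and 1, 2 and 0 in the *Mael*-/- libraries. Its footprint counts were 1294, 660 and 863 against 0, 0 and 7, so the labels and the targeted gene go together. In the tables of counts no member was at 0 in any library, and all 9 passed the filter on low counts in every comparison. The *Mael*+/- extract numbered 1 stood apart in both of its libraries. On a log2 scale with the mean of the 6 libraries of the assay set to 0, the median of 9 pachytene markers (those of 12 listed that passed the filter on low counts) was 1.996 in its RNA and 1.89 in its footprints. In the other 10 libraries it lay between -0.88 and 0.15, and of the 12 *Adam3*, *Pgk2* and *Acr* were at 0 in some library. Fold changes of the members are given with that extract and, for 5 of them, also without it. In whole testes, fewer cells of a type and less RNA per cell cannot be told apart.

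The members lie on 7 chromosomes of GRCm38 (mm10). *Rec8* is at chr14:55618002-55625395 on the plus strand, *Rad21l* at chr2:151644366-151670622 on the minus strand, *Stag3* at chr5:138272514-138312397 on the plus strand and *Smc1b* at chr15:85064689-85131957 on the minus strand. *Rad21* is at chr15:51962604-51993538 on the minus strand, *Stag1* at chr9:100597709-100958544, *Smc3* at chr19:53600396-53645831, and the X-linked *Stag2* and *Smc1a* at chrX:42149297-42277186 and chrX:152016428-152061973, these 4 on the plus strand. *Stag3* overlaps *Gal3st4* and *Gpc2*, *Smc1b* overlaps *Fam118a* and *Smc1a* overlaps *Ribc1*, all on the opposite strand and with 0 exon bases shared.

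Promoter windows from RefSeq (GRCm38.p6), 250 bases before to 50 after an mRNA's start, were available for 7 of the 9 members and not for *Rad21* and *Stag2*. The windows of the SMC1 pair and the STAG pair are shown. These paralogues divide their subunit class between meiotic and general use, as the kleisins also do. Shared variation over the libraries does not set these 4 genes apart. With the mean of each assay taken off, *Smc1b* had a Pearson r of 0.780 with *Stag3* and 0.931 with *Stag1*, but 0.111 with *Smc1a*. Its r was 0.873 with *Smc3* and 0.829 with *Rad21l*, whose windows are not shown. The core TTCCCGC of E2F sites, searched on both strands (GCGGGAA on the other), occurred in all 4 and is in capitals, as is the E-box CACGTG of the *Stag3* window, which reads the same on both strands and overlaps no other match.
*Smc1b*, chr15:85131908-85132207, minus strand: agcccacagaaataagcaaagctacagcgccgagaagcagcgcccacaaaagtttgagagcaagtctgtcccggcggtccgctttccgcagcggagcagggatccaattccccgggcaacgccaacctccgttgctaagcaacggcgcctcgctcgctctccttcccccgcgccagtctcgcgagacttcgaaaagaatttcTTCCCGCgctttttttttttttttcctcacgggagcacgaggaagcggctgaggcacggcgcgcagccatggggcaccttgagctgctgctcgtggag
*Smc1a*, chrX:152016178-152016477, plus strand: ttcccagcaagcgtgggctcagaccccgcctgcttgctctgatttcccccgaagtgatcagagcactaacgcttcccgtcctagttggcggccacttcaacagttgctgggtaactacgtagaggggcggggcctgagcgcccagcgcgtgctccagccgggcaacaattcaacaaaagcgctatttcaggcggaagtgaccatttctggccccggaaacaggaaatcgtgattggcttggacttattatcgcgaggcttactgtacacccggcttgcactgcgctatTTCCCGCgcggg
*Stag3*, chr5:138280259-138280558, plus strand: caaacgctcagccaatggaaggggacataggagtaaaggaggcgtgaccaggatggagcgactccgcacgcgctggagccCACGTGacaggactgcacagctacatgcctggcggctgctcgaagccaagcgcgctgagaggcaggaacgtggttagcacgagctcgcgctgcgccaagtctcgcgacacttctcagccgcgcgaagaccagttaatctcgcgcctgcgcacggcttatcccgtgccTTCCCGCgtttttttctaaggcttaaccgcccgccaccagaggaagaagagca
*Stag1*, chr9:100643198-100643497, plus strand: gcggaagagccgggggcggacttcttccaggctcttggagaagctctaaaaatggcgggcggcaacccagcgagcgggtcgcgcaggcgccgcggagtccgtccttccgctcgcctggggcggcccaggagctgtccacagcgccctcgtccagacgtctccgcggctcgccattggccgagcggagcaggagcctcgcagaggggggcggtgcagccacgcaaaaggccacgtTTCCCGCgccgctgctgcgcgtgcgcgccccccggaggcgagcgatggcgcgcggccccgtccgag
The TTCCCGC core began 48 bases before the start in *Smc1b*, 3 before it in *Stag3* and 16 before it in *Stag1*, and lay after the start of *Smc1a*. The *Stag3*, *Stag1* and *Rad21l* windows lie inside the gene spans given above, so their starts are not the first bases of those spans. The start used for *Rec8* also lies inside its span. The core was present in 4.6% of all 32851 windows of this length, and CACGTG in 7.15%. Those windows had a median GC of 52.7%, and the 4 shown had 58.3% (*Smc1a*) to 73.7% (*Stag1*), a difference these percentages do not take into account. The windows of *Rec8*, *Rad21l* and *Smc3* held neither run of letters. The curated *Rad21l* mRNA consists of coding sequence alone, so its window is placed by the start of coding sequence and may not hold the promoter. The motifs were picked with the sequences in view, so the matches only describe these windows, and they fell in the general copies as well as the meiotic ones.

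*Smc1b*, the meiotic SMC1 subunit, stood at 386.8, 248.8 and 243.3 CPM (counts scaled by library size and TMM factor) in the *Mael*+/- RNA libraries, and at 339.9, 352.0 and 263.0 CPM in the *Mael*-/- RNA libraries. In footprints it was at 443.7, 249.4 and 257.7 CPM against 357.5, 340.5 and 322.4 CPM. The highest value of both assays came from *Mael*+/- extract 1, while extracts 2 and 3 lay below every *Mael*-/- library, so the groups overlapped through that extract alone. The log2 fold change was 0.12 ± 0.18 (SE, n = 3 against 3) in RNA and 0.10 ± 0.19 in footprints, with edgeR adjusted p of 0.982 and 0.998. Without extract 1 it was 0.37 ± 0.12 in RNA and 0.42 ± 0.09 in footprints, and the adjusted p was 0.364 and 0.185.

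*Stag3*, whose product binds the meiotic rings, was also highest in *Mael*+/- extract 1. Its RNA was at 429.4, 337.7 and 282.8 CPM in *Mael*+/- and at 319.4, 353.7 and 319.3 CPM in *Mael*-/- libraries. Its footprints were at 463.1, 347.6 and 297.5 CPM against 354.3, 399.5 and 321.5 CPM. The genotypes overlapped, and *Mael*+/- RNA extract 2 lay above 2 of the 3 *Mael*-/- RNA libraries. The log2 fold change was -0.08 ± 0.14 in RNA and -0.04 ± 0.15 in footprints (adjusted p 0.982 and 0.998, edgeR). It changed sign without extract 1, to 0.09 ± 0.10 and 0.15 ± 0.11.

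*Rad21l* encodes a kleisin found early in meiotic prophase. It had 35.8, 28.7 and 22.1 CPM in *Mael*+/- RNA against 34.3, 43.4 and 30.8 CPM in *Mael*-/- RNA, and 78.4, 52.1 and 45.9 CPM against 73.7, 86.6 and 59.9 CPM in footprints. *Mael*-/- extract 2 was the highest in each assay, and the genotypes overlapped. With 471 to 875 counts in the RNA libraries, it was the least deeply counted member in RNA. Its fold changes were the largest of the 9, 1.25 in RNA (95% interval 0.945 to 1.66) and 1.25 in footprints (0.930 to 1.68), and neither passed (edgeR adjusted p 0.972 and 0.998). Without *Mael*+/- extract 1 the log2 values were 0.51 ± 0.15 and 0.59 ± 0.14, at adjusted p of 0.296 and 0.271.

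*Rec8*, the kleisin that persists until the chromosomes separate, did not follow the other meiotic members. *Mael*+/- RNA held 41.9, 42.4 and 45.2 CPM and *Mael*-/- RNA 49.1, 51.2 and 44.4 CPM. *Mael*+/- footprints held 56.3, 57.7 and 63.5 CPM and *Mael*-/- footprints 77.4, 68.6 and 52.9 CPM. *Mael*+/- extract 1 was here the lowest of its group, and in both assays *Mael*-/- extract 3 fell among the *Mael*+/- values or below them. The log2 fold change was 0.16 ± 0.10 in RNA and 0.17 ± 0.14 in footprints (edgeR adjusted p 0.982 and 0.998).

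**Figure D1:**
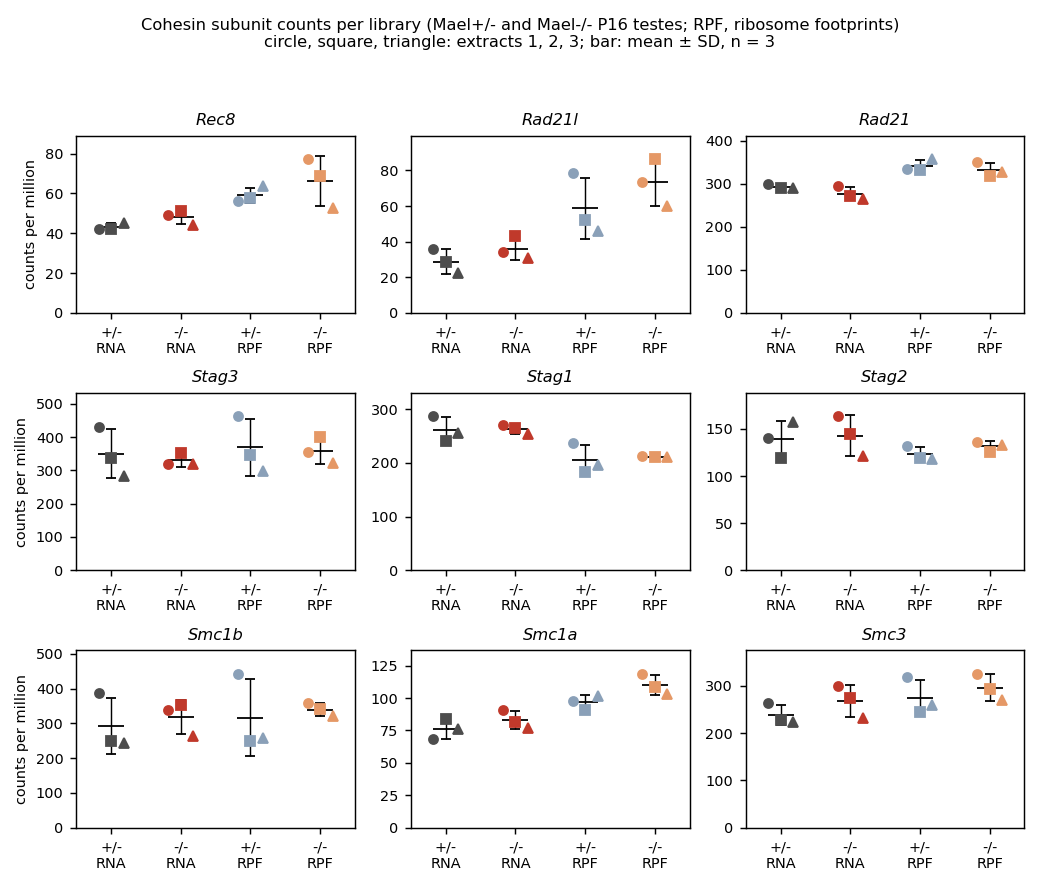
Normalised counts (CPM) of the 9 cohesin subunit genes in the 12 libraries, each panel on its own linear axis from 0, with RPF for ribosome footprints. Symbols give the extract and bars the mean ± SD of 3 libraries. *Smc1b* and *Stag3* are highest in *Mael*+/- extract 1 (circles), and the *Smc1a* footprints are the only values in which the genotypes do not overlap.

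*Rad21* encodes the kleisin of dividing cells. Its RNA ran from 290.6 to 298.7 CPM in *Mael*+/- and from 265.1 to 294.0 CPM in *Mael*-/- libraries, and its footprints from 332.8 to 358.4 and from 317.5 to 350.9 CPM. The log2 fold change was -0.08 ± 0.08 in RNA and -0.04 ± 0.09 in footprints. *Stag1*, at 240.0 to 286.8 against 253.0 to 271.1 CPM in RNA, and *Stag2*, at 119.0 to 157.1 against 121.0 to 163.5 CPM, had log2 fold changes of 0.01 ± 0.09 and 0.04 ± 0.13. In footprints *Stag1* was at 183.5 to 237.1 against 210.0 to 212.8 CPM and *Stag2* at 117.9 to 131.5 against 125.9 to 136.4 CPM. All these ranges overlapped between the genotypes.

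*Smc3*, the subunit that every ring shares, was at 263.5, 226.6 and 224.0 CPM in *Mael*+/- RNA and at 298.7, 273.2 and 231.2 CPM in *Mael*-/- RNA. Its footprints were at 317.4, 244.8 and 259.3 CPM against 325.6, 293.1 and 269.2 CPM. The log2 fold change was 0.17 ± 0.11 in RNA and 0.11 ± 0.12 in footprints, and extract 1 again lay above the other *Mael*+/- extracts. Without it the values were 0.25 ± 0.11 and 0.23 ± 0.10 (unadjusted p 0.0346 and 0.0436, edgeR adjusted p 0.721 and 0.800). *Smc1a*, the SMC1 of somatic cells, was at 68.3, 83.7 and 76.4 CPM in *Mael*+/- RNA and 90.6, 81.8 and 77.1 CPM in *Mael*-/- RNA, with a log2 fold change of 0.13 ± 0.10, or 0.05 ± 0.10 without extract 1. Its footprints were at 98.0, 90.9 and 101.6 CPM in *Mael*+/- and 118.9, 108.3 and 103.2 CPM in *Mael*-/- libraries. There every *Mael*-/- library lay above every *Mael*+/- library, although the nearest were only 103.2 and 101.6 CPM, and the log2 fold change was 0.19 ± 0.10 (edgeR p 0.0801, adjusted p 0.998).

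None of the 9 members passed the test for a difference between the genotypes. In RNA 0 of 9 passed an adjusted p of 0.05 in edgeR, beside 17 of 14685 genes tested (0.116%), and 0 of 9 had an unadjusted p under 0.05, beside 5.4% of all genes. In footprints 0 of 9 passed, beside 8 of 13500 genes (0.0593%), and again 0 of 9 had an unadjusted p under 0.05, beside 4.33%. DESeq2 called 0 of 9 in each assay, adjusted or not. In edgeR with a block that matches the genotypes by replicate number, 0 of 9 passed in each assay. In that fit 1 of 9, *Rad21l*, had an unadjusted p under 0.05 in each assay. Its log2 fold change there was 0.341 in RNA (edgeR p 0.0277, adjusted p 0.627). In footprints it was 0.334 (edgeR p 0.0336, adjusted p 0.847). Whether the replicate numbers pair the genotypes is not settled. The ranges of the genotypes were apart for 0 of 9 members in RNA and for 1 of 9 in footprints, beside 10.3% and 9.09% of genes tested. Among the meiotic members 3 of 4 estimates were above 0 in each assay, with a median log2 fold change of 0.14 in RNA and 0.14 in footprints, where the medians of all genes were 0.00 and -0.01. Among the 5 general members the median was 0.04 in RNA and 0.10 in footprints.

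**Figure D2:**
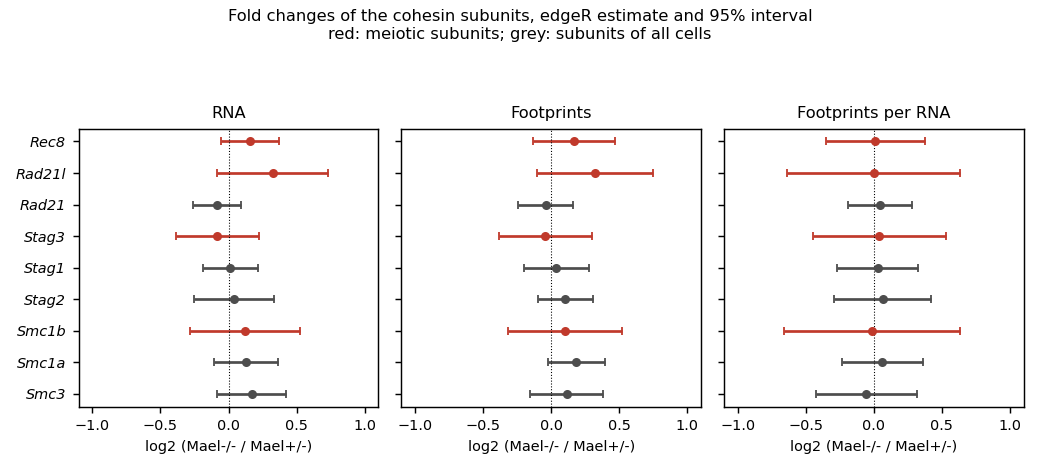
Log2 fold change of each subunit gene, *Mael*-/- over *Mael*+/-, in RNA, in footprints and in footprints relative to RNA, as edgeR estimates with 95% intervals. Meiotic subunits are red and general ones grey, and every interval includes 0.

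With all libraries, the intervals bound the changes as follows. In RNA the 95% interval of the fold was 0.763 to 1.17 for *Stag3*, 0.821 to 1.44 for *Smc1b* and 0.963 to 1.29 for *Rec8*, and the narrowest, for *Rad21*, ran from 0.833 to 1.07. In footprints the interval was 0.767 to 1.23 for *Stag3*, 0.801 to 1.44 for *Smc1b* and 0.913 to 1.38 for *Rec8*. An interval from 3 extracts a group gives the changes compatible with the data and is not a limit of detection. Calls rested on p-values adjusted over all genes, so a change outside these bounds could also fail to pass. Without *Mael*+/- extract 1 the 95% interval of the log2 fold change of *Smc1b* was 0.12 to 0.62 in RNA and 0.22 to 0.62 in footprints (unadjusted p 0.00581 and 0.000628, edgeR), and that of *Rad21l* 0.19 to 0.82 and 0.28 to 0.90, so the bounds above depend on that extract.

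Translation efficiency, the change of footprints beyond that of RNA, passed the test for a difference in no member. The log2 values lay between -0.05 (*Smc3*) and 0.06 (*Stag2*), and 0 of 9 members passed in edgeR or DESeq2 or had an unadjusted p under 0.05, beside 0% and 0.577% of 14374 genes tested. Standard errors were 0.11 (*Rad21*) to 0.30 (*Smc1b*), the latter giving a 95% interval of 0.633 to 1.55 as a fold. That fit does not pair the RNA and footprint libraries of an extract. With the extract as a block, standard errors were 0.094 (*Stag1*) to 0.119 (*Stag2*). For *Smc1b* the block gave 0.104, with a 95% interval of the log2 value of -0.205 to 0.227. The sign of the translation efficiency values changed with the libraries or the settings used for 8 of 9 members.

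The meiotic genes also varied from extract to extract. With the mean of the 6 libraries of the assay set to 0, the median log2 level of the 4 meiotic subunits was 0.26 in the RNA and 0.32 in the footprints of *Mael*+/- extract 1, while *Rec8* alone was below 0 there, at -0.12 and -0.14. The 11 genes of the chromosome axis and synaptonemal complex, which are built on meiotic cohesin, had a median of 0.84 and 1.03 in that extract and lay between -0.29 and 0.10 in the other 10 libraries. Early prophase markers (11 genes) had 0.51 and 0.57. The summed level of the pachytene markers was 858.2 CPM (12 genes) in its RNA, against 306.5 and 331.4 CPM in the other *Mael*+/- and 247.8 to 284.6 CPM in the *Mael*-/- libraries. In footprints the sum was 1015 CPM against 292.8 and 357.6, and 255.2 to 297.5 CPM in *Mael*-/-. Sertoli markers (11 genes) summed to 7777 CPM in its RNA and 8188 to 9057 CPM in the other 5 RNA libraries, the lowest value in both assays, and spermatogonial markers (11 genes) to 1116 CPM, within the 1086 to 1301 CPM of the others. Leydig markers (8 genes) ran from 360.6 to 679.2 CPM and macrophage and vascular markers (8 genes) from 880.0 to 1044 CPM in RNA. None of these markers besides the 3 pachytene ones was at 0 in a library, and their part in the levels of the subunits was not tested.

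**Figure D3:**
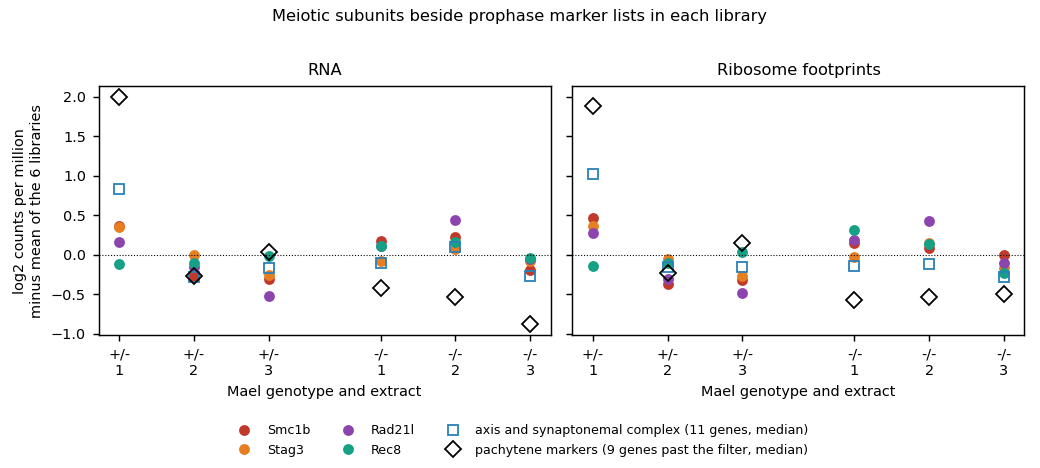
Level of the 4 meiotic subunits and the median of 2 marker lists in each library, as log2 CPM minus the mean of the 6 libraries of the assay. *Mael*+/- extract 1 stands out in the pachytene markers (1.996 in RNA) and less in *Smc1b* and *Stag3*, while *Rec8* is below 0 there.

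Over the 12 libraries, after the mean of each assay was taken off, *Smc1b* varied with *Stag1* (Pearson r 0.931), *Smc3* (0.873), *Rad21l* (0.829) and *Stag3* (0.780). Among the meiotic members *Rec8* had r of 0.374 with *Rad21l*, 0.151 with *Smc1b* and -0.102 with *Stag3*. Its r was 0.682 with *Smc1a* and 0.517 with *Smc3*. These are descriptions over 12 libraries of 6 extracts, and paired libraries share an extract. Likeness was ranked over 11234 genes that averaged 50 counts or more in each assay. Taking the highest of so many genes over 6 extracts favours high values, and the best match of every member had r of 0.884 or more. The r that unrelated genes would reach was not tested, nor was the part of *Mael*+/- extract 1. The 3 whose pattern was most like that of *Smc1b* were *Gm1564* (listed by RefSeq as *Meioc*, a factor of early meiosis; r 0.987), *BC055324* (0.983) and *Ythdc2* (0.981), an RNA helicase of meiotic entry. For *Stag3* they were the meiotic recombination gene *Msh5* (0.974), the synaptonemal complex gene *Syce1* (0.973) and *Ccdc155* (0.970). For *Rad21l* they were the histone methyltransferase gene *Setdb1* (0.982), *Nptx2* (0.959) and the helicase gene *Brip1* (0.957). *Rec8* was most like *Tcf21* (0.940), a transcription factor gene of somatic cells, *Igfbp3* (0.932) and *Tec* (0.924). For *Smc3* they were the cell division genes *Anln* (0.977) and *Kif11* (0.931) and the chromatin remodeller gene *Smarca5* (0.930). The 3 most like *Stag1* were *Abca5* (0.965), *Nmd3* and *Dzip3* (both 0.962), and those most like *Rad21*, *Stag2* and *Smc1a* reached r of 0.884 (*Cd97*), 0.906 (*Wasl*) and 0.934 (*Gripap1*).

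Levels of different genes were compared per kilobase of exon of the curated RefSeq mRNAs for RNA, and per kilobase of coding sequence for footprints. In *Mael*+/- RNA *Stag3* (82.8 ± 17.5 CPM per kb, SD, n = 3), *Rad21* (81.4 ± 1.3) and *Smc1b* (72.5 ± 20.1) were highest and their ranges overlapped. *Smc3* (49.1 ± 4.6) and *Stag1* (41.6 ± 3.8) followed, each apart from its neighbours. *Stag2* (21.6 ± 3.0), *Rec8* (21.0 ± 0.87), *Smc1a* (19.2 ± 1.9) and *Rad21l* (17.4 ± 4.1) were lowest, with overlapping ranges. *Mael*-/- RNA fell into the same 4 steps, led by *Smc1b* at 78.8 ± 11.95 CPM per kb, and within the highest and lowest steps the order differed while ranges overlapped. In footprints *Rad21* stood alone at the top, at 179.1 ± 7.6 CPM per coding kb in *Mael*+/- and 174.2 ± 8.9 in *Mael*-/- testes. *Stag3* (99.2 ± 22.8), *Smc1b* (84.6 ± 29.3) and *Smc3* (74.9 ± 10.5) came next in *Mael*+/- testes and *Smc1a* was last (26.2 ± 1.5).

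The meiotic paralogue had the largest share of the SMC1 and STAG classes, and *Rad21* that of the kleisins. *Smc1b* made up 78.4% ± 5.6 of the SMC1 RNA level per kilobase in *Mael*+/- and 78.9% ± 1.9 in *Mael*-/- testes, and 75.4% ± 5.5 and 75.3% ± 0.46 of the footprints. *Stag3* made up 56.4% ± 5.0 and 54.9% ± 2.2 of STAG RNA and 53.0% ± 3.6 and 51.4% ± 3.1 of STAG footprints, where its lowest values were 49.0% in *Mael*+/- and 48.7% in *Mael*-/- libraries. All these ranges overlapped. *Rec8* and *Rad21l* together made up 30.5 to 33.6% of kleisin RNA in *Mael*+/- and 35.3 to 40.4% in *Mael*-/- libraries, so these groups were apart, with means of 32.0% ± 1.6 and 37.0% ± 2.9, and *Rad21* made up the rest. This was the only such share whose groups were apart in RNA, and 10.3% of single genes were apart there. In footprints the same share was 25.3 to 31.1% against 27.7 to 35.3% and the groups overlapped.

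As a ratio per kilobase, *Rec8* to *Rad21* was 0.258 ± 0.014 in *Mael*+/- RNA (0.246 to 0.273) and 0.306 ± 0.022 in *Mael*-/- RNA (0.293 to 0.331). These groups were apart, but the *Rec8* and *Rad21* counts are those already used in the kleisin share. In footprints it was 0.186 ± 0.005 against 0.214 ± 0.036, with overlap. *Rad21l* to *Rad21* was 0.213 ± 0.047 and 0.284 ± 0.055 in RNA, with overlap. *Smc1b* to *Smc1a* was 5.57, 2.92 and 3.13 in *Mael*+/- RNA and 3.69, 4.23 and 3.35 in *Mael*-/- RNA, so that without extract 1 the *Mael*+/- values lay below all *Mael*-/- values. *Stag3* exceeded *Stag1* by 1.98 ± 0.30 fold in *Mael*+/- and 1.86 ± 0.12 fold in *Mael*-/- RNA. Of 5 ratios, 1 was apart between the genotypes in RNA and 0 in footprints, beside 10.3% and 9.09% of single genes. The ratios are descriptions with no test, and an exact permutation test of 3 against 3 gives no p below 0.1. In sum over each class, relative to *Smc3*, the kleisins were at 2.45 ± 0.13, the STAG genes at 2.97 ± 0.13 and the SMC1 genes at 1.86 ± 0.19 in *Mael*+/- RNA, and at 2.23 ± 0.17, 2.602 ± 0.244 and 1.81 ± 0.09 in *Mael*-/- RNA. The STAG sum ran from 2.86 to 3.12 in *Mael*+/- and from 2.34 to 2.83 in *Mael*-/- RNA. It was the only 1 of these 3 sums whose groups were apart, beside 10.3% of single genes. In footprints the 3 sums were at 3.34 ± 0.36, 2.48 ± 0.16 and 1.46 ± 0.18 in *Mael*+/- and at 3.16 ± 0.10, 2.32 ± 0.19 and 1.49 ± 0.06 in *Mael*-/- testes, all with overlap.

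**Figure D4:**
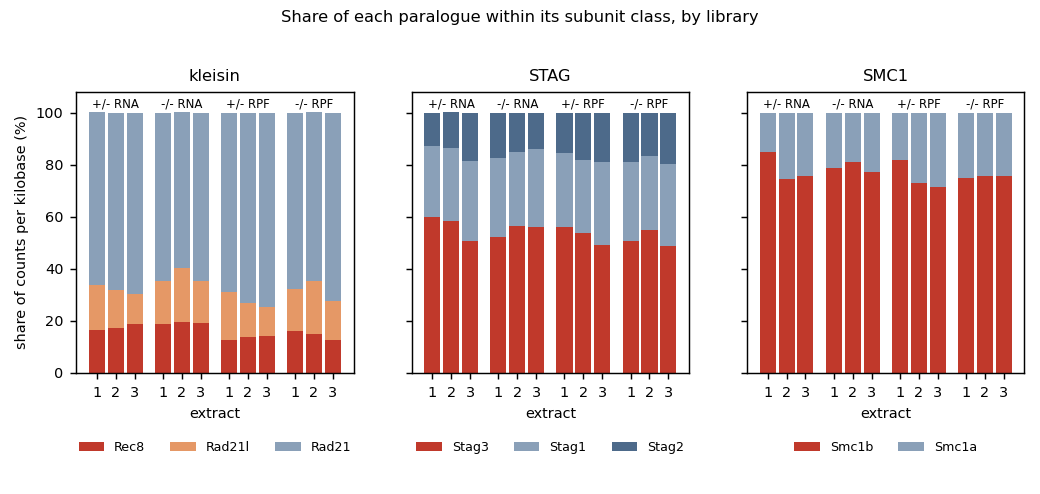
Share of each paralogue in the level of its subunit class (counts per kilobase, in percent) in each library, with bars for extracts 1 to 3 of each group. *Smc1b* holds most of the SMC1 class and *Stag3* the largest share of the STAG class in all libraries, while *Rad21* holds most of the kleisin class.

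Set against RNA in CPM, without regard to length, footprints were higher for the kleisins *Rad21l*, *Rec8* and *Rad21* and for *Smc1a*. *Rad21l* had 2.04 times as large a share of footprints as of RNA in *Mael*+/- (95% interval 1.48 to 2.80) and 2.04 times in *Mael*-/- testes (1.48 to 2.79). The log2 value was 1.03 ± 0.21 and 1.02 ± 0.21, and the adjusted p 0.000891 and 0.000816 (edgeR). *Rec8* had log2 values of 0.45 ± 0.12 and 0.47 ± 0.12 (adjusted p 0.00511 and 0.00412), *Smc1a* 0.35 ± 0.10 and 0.41 ± 0.10 (0.00771 and 0.00252), and *Rad21* 0.22 ± 0.08 and 0.26 ± 0.08 (0.0255 and 0.00898). *Stag1* went the other way, with -0.34 ± 0.10 and -0.31 ± 0.10 (adjusted p 0.00845 and 0.0135). *Smc3* (0.20 ± 0.12 and 0.15 ± 0.12), *Stag2* (-0.18 ± 0.12 and -0.11 ± 0.12), *Smc1b* (0.11 ± 0.21 and 0.10 ± 0.21) and *Stag3* (0.08 ± 0.16 and 0.12 ± 0.16) did not pass. Thus 5 of 9 members passed in each genotype, where 56.7% and 57.2% of the 14374 genes tested did. Higher in footprints were 4 members in each genotype, beside 23% (*Mael*+/-) and 23.1% (*Mael*-/-) of genes, and lower was *Stag1* alone, beside 33.7% and 34.1%.

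The spread of these ratios between extracts differed among the members that passed. For *Rad21l* the log2 ratio of footprint CPM to RNA CPM was 1.13, 0.86 and 1.05 in *Mael*+/- extracts 1 to 3 and 1.103, 0.998 and 0.961 in *Mael*-/- extracts. For *Stag1* it was -0.27, -0.39 and -0.37, and -0.35, -0.33 and -0.26. *Rec8* spread more widely in *Mael*-/- (0.66, 0.42 and 0.25) than in *Mael*+/- extracts (0.43, 0.44 and 0.49). *Smc1a* had 0.52, 0.12 and 0.41 in *Mael*+/- and 0.39, 0.40 and 0.42 in *Mael*-/- extracts. With the extract as a block, *Smc3* also passed in *Mael*+/- testes (log2 0.20, adjusted p 0.0129) and missed in *Mael*-/- testes (0.0538), where 69.3% and 69.6% of all genes passed with the block. With the block and without *Mael*+/- extract 1, *Smc3* had 0.16 in *Mael*+/- testes and no longer passed (adjusted p 0.0993). With DESeq2 the call of *Stag1* in *Mael*-/- testes was lost (adjusted p 0.0766). For *Rad21* the call in *Mael*+/- testes was lost without RNA replicate 2 (adjusted p 0.0613), RNA replicate 3 (0.0654) or footprint replicate 3 (0.0899) of that genotype.

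Read per length, these values change places, because RNA was counted over whole mRNAs and footprints over coding sequence. The median gene had a log2 ratio of -0.10 in CPM and of 0.86 per kilobase in *Mael*+/- testes. Against the 14305 genes with known lengths, *Rad21* (1.14 per kilobase, percentile 64.7) and *Rad21l* (1.03, percentile 59.2) were above the median. *Rec8* (0.67, percentile 38.7), *Smc3* (0.61), *Stag2* (0.58), *Smc1a* (0.45), *Stag1* (0.39), *Stag3* (0.26, percentile 17.8) and *Smc1b* (0.22, percentile 16.5) were below it. The curated *Rad21l* mRNA consists of coding sequence alone (1.659 kb), so its RNA level per kilobase depends on whether the annotation used for counting held untranslated exons. The mRNA of *Rad21* is 1.89 times as long as its coding sequence, and that of *Smc1b* is 1.08 times as long.

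**Figure D5:**
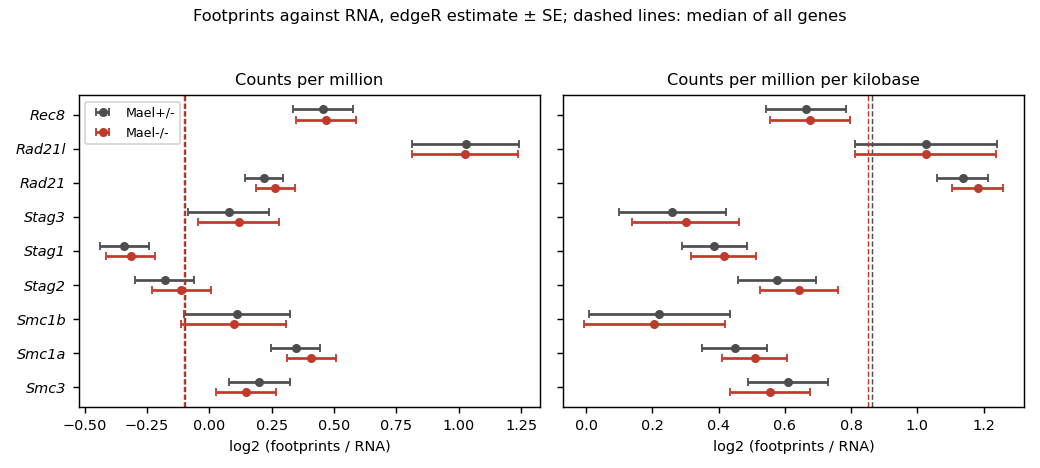
Log2 ratio of footprints to RNA for each subunit gene, in CPM (left) and per kilobase (right), as edgeR estimates ± SE for *Mael*+/- and *Mael*-/- testes. Dashed lines mark the median of all genes, -0.10 on the left and 0.86 (*Mael*+/-) on the right, and only *Rad21* and *Rad21l* lie to the right of it in both panels.

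Genes that load, release, protect or cut cohesin, listed with *Ctcf*, *Ctcfl* and *4930404A10Rik*, were not called in edgeR either. Of these 16 regulators 0 passed in RNA, footprints or translation efficiency. In RNA 2 had an unadjusted p under 0.05 and in footprints 2, beside 5.4% and 4.33% of all genes. They were *4930404A10Rik*, given below, and *Ctcfl*, which was higher, at 0.33 ± 0.13 in both assays. Over the 16 the median log2 fold change was -0.02 in each assay. The loader gene *Nipbl* had -0.05 ± 0.18 in RNA and -0.01 ± 0.14 in footprints, the release factor gene *Wapal* (Wapl) -0.01 ± 0.09 and -0.05 ± 0.11, and *Pds5b*, whose product helps to hold and release rings, -0.02 ± 0.13 and -0.04 ± 0.10. The acetyltransferase gene *Esco2* had 0.12 ± 0.15 and 0.02 ± 0.12, and *Sgol2* (shugoshin 2), which shields REC8 at centromeres, -0.05 ± 0.17 and -0.08 ± 0.20. The separase gene *Espl1* had 0.11 ± 0.09 and -0.02 ± 0.10, and that of its inhibitor securin, *Pttg1*, 0.05 ± 0.11 and -0.02 ± 0.11.

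The regulator farthest from 0 was *4930404A10Rik*, listed by RefSeq as *Meikin*, a kinetochore gene of the first meiotic division. Its RNA was at 7.58, 2.38 and 2.42 CPM in *Mael*+/- and 1.02, 1.24 and 1.09 CPM in *Mael*-/- libraries, and its footprints at 9.01, 2.97 and 2.63 against 0.681, 0.998 and 1.42 CPM. The genotypes were apart in both assays, as they were for 10.3% of genes in RNA and 9.09% in footprints. The highest value came from *Mael*+/- extract 1. The log2 fold change was -1.87 ± 0.47 in RNA and -2.28 ± 0.52 in footprints, with an edgeR adjusted p of 0.553 and 0.568. Without that extract it was -1.09 ± 0.28 and -1.48 ± 0.37 (adjusted p 0.149 and 0.297). DESeq2 called it in RNA and in footprints, at adjusted p of 0.0261 and 0.02.

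Of 14 condensin and SMC5/6 subunits, the related ring complexes, 0 passed in any of these 3 comparisons, with a median log2 fold change of -0.01 in RNA and -0.02 in footprints. The 11 genes of the axis and synaptonemal complex had estimates below 0 in 11 of 11 cases in RNA (median -0.42) and in 10 of 11 in footprints (median -0.49), and 0 passed in edgeR or DESeq2. Without *Mael*+/- extract 1, 5 of 11 estimates were below 0 in each assay and the median was 0.04 in RNA and 0.01 in footprints. *Sycp1* had -0.42 ± 0.41 in RNA and -0.55 ± 0.31 in footprints, *Sycp2* -0.71 ± 0.33 and -0.66 ± 0.30, *Sycp3* -0.50 ± 0.38 and -0.77 ± 0.35, and *Hormad1* -0.31 ± 0.42 and -0.69 ± 0.34. The meiotic cohesin genes lay on the other side of 0 in 3 of 4 cases, at a median of 0.14, and in 4 of 4 without that extract, at a median of 0.25 in RNA and 0.29 in footprints. Axis genes were 2376 CPM in sum in the RNA of *Mael*+/- extract 1 and 873.7 to 1264 CPM in the other 5 RNA libraries, and a test of the difference between the lists was not made.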

How the data were processed

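Testes were lysed with cycloheximide, which holds ribosomes on mRNA, and aliquots of each extract gave a stranded, rRNA-depleted total RNA library and a library of footprints made with micrococcal nuclease. The authors trimmed linker and random bases from footprint reads, removed ribosomal reads with Bowtie 1.2.2, aligned to mm10 with STAR 2.6.0c and deposited raw counts from featureCounts (Subread 1.6.4), with whole mRNAs as features for RNA and coding sequence as features for footprints. The annotation, the strand setting and any removal of duplicates are not given in the sources used here, so counts may hold copies of the same molecule. Deposited DESeq2 tables of the authors' own comparisons (fold changes and p-values) were not used.

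The 20620 gene rows went into quasi-likelihood fits (edgeR 4.0.16, R 4.3.3). Low counts were filtered by filterByExpr, TMM factors were set per assay, and p-values were adjusted by Benjamini-Hochberg over every gene tested. The genotypes were compared over the 6 libraries of an assay. Translation efficiency (the interaction of genotype and assay) and footprints against RNA within a genotype came from a joint fit over 12 libraries. Alternatives were DESeq2 1.42.0, median-of-ratios size factors, no filter, a replicate block, each library left out, and both libraries of *Mael*+/- extract 1 left out (with the block, chosen after seeing the data). Lengths came from curated RefSeq mRNAs of GRCm38.p6, matched to 20389 gene rows. The fits were tested on simulated data with independent libraries and planted changes larger than those of the members. That test does not cover paired extracts, an outlying extract or small changes. Replicates are labelled biological, and whether an extract holds several animals is not given.

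RNA and footprint libraries of an extract come from aliquots of that extract, and their deviations from the group mean correlated over 11235 genes (r 0.805, 0.667 and 0.726 in *Mael*+/-, 0.263, 0.283 and 0.272 in *Mael*-/-), above the limit of 0.1 for treating them as pairs.

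The members and gene lists were chosen with earlier results of these data known. All 9 members were named with their values, in each library or, for *Rad21*, *Stag1* and *Stag2*, as the range of each group. Also named were *Mael*, 11 preset genes of the regulator and axis lists, and the genes most alike each member. These were ranked by Pearson r over log2 CPM with a prior count of 2. The first 3 were named, but for *Rad21*, *Stag2* and *Smc1a* only the first. The list gene farthest from 0 and *Ctcfl* were chosen after their values were seen.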

Additional observations from a re-analysis of the deposited data

How the results depend on the processing

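No member passed in RNA, footprints or translation efficiency under any alternative: of 90, 90 and 162 recomputed values, 0 had an adjusted p under 0.05, and the lowest were 0.296, 0.185 and 1. The count of all genes called was less stable. It was 17 in RNA and became 66 with DESeq2, 50 with a replicate block and 2 to 64 with a library left out. In footprints it was 8 and became 26, 23 and 2 to 17. The 64 and the 17 came without *Mael*+/- replicate 1. The split of the RNA calls moved from 16 higher and 1 lower to 34 and 32 with DESeq2 and to 26 and 24 with the block. That block matches the genotypes by replicate number, and whether numbers pair them is not settled. The r between *Mael*+/- and *Mael*-/- libraries of the same number was -0.03 to 0.29 in RNA and 0.06 to 0.29 in footprints. Some of these values exceed 0.1, the limit used for extracts, and some do not. With 3 numbers, not every library correlated best with its own: *Mael*+/- RNA 2 and *Mael*-/- RNA 3 had r of 0.418. Within extracts, the replicate block took the genes called between footprints and RNA from 8146 to 9966 (*Mael*+/-) and from 8226 to 10000 (*Mael*-/-) and, among the members, changed only the call of *Smc3* in *Mael*+/- testes.

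Signs changed for values near 0. With each library left out in turn, the log2 fold change in RNA ran from -0.213 to 0.092 for *Stag3*, from -0.044 to 0.086 for *Stag1* and from -0.070 to 0.147 for *Stag2*. In footprints it ran from -0.178 to 0.151 for *Stag3*, from -0.044 to 0.422 for *Smc1b* and from -0.038 to 0.150 for *Stag1*. Translation efficiency ran from -0.119 to 0.148 for *Rec8*, -0.181 to 0.260 for *Rad21l*, -0.130 to 0.234 for *Stag3*, -0.263 to 0.304 for *Smc1b*, -0.045 to 0.140 for *Stag1*, -0.043 to 0.173 for *Stag2*, -0.013 to 0.137 for *Smc1a* and -0.151 to 0.064 for *Smc3*. Footprints against RNA ran from -0.110 to 0.243 for *Stag3* and from -0.200 to 0.357 for *Smc1b* in *Mael*+/-, and from -0.024 to 0.178 for *Smc1b* in *Mael*-/- testes. Translation efficiency also changed sign for *Rad21l* without the filter (0.001), with the block (0.002), without *Mael*+/- extract 1 (0.083) and with both choices (0.065). It did so for *Smc1b* with the block (0.011), without that extract (0.056) and with both (0.065), and for *Rec8* with the block (-0.004) and with both (-0.017). For *Smc1b* both ends of the range came from leaving out 1 library of *Mael*+/- extract 1 and keeping its partner. The value was -0.263 without the RNA library and 0.304 without the footprint library. The ends for *Rad21l* and *Stag3* came from the same fits. The cause of the sign changes was not tested.

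DESeq2 scales both assays together, which moved the median of all genes in footprints against RNA from -0.10 to 0.00 in *Mael*+/- and to 0.01 in *Mael*-/- testes. With that scaling *Stag1* no longer passed in *Mael*-/- testes (log2 -0.206, adjusted p 0.0766), and *Smc3* passed in *Mael*+/- testes (0.034). Class shares with the longest transcript as length moved by less than 1 SD. Ratios of paralogues, as log2 *Mael*-/- minus *Mael*+/- with a library left out, stayed above 0 for *Rec8* to *Rad21* (0.19 to 0.28 in RNA) and for *Rad21l* to *Rad21* (0.25 to 0.58), and spanned 0 for *Smc1b* to *Smc1a* (-0.16 to 0.31). Each group held 3 extracts, which limits the precision, and the part of depth was not tested.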
